A study of Drosophila melanogaster with 4 samples.

Results

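The circular RNAs (circRNAs) described here are those of mbl (muscleblind) in heads of the fruit fly Drosophila melanogaster. A circRNA is a closed ring formed by back-splicing, in which the downstream end of an exon is joined to its own start or to that of an upstream exon. Members were the entries whose gene symbol in the authors' list is mbl, and there were 17 of 2563 entries. The study sequenced ribosome-protected RNA fragments (footprints) from whole heads in 4 libraries, 2 for which the labels give a low detergent buffer and 2 a high detergent buffer. The labels give no genotype, age, sex or other agent for the flies. The labels' protocols describe the lysis of numbered heads, but do not say which numbers are the low and which the high detergent samples. Columns of single libraries could therefore not be matched to samples, so the buffers are not compared and values by library are not used here. All reads below are the authors' counts over all samples, so they have no replicate error. Intervals are 95%, and those on reads cover counting error only. Intervals on shares of circles or on median spans treat circles as independent draws. Circles of the same gene are not replicates and often share ends, so those intervals are only a rough guide. The list does not say what its reads are, and it is assumed here that they span the back-splice junction. A circle has 1 such junction whatever its length, so reads are compared between circles without dividing by length.

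Muscleblind is a zinc-finger RNA-binding protein that controls alternative splicing, and it is known for its part in the terminal differentiation of muscles and photoreceptors. Its human relatives, the MBNL proteins, are the factors trapped by expanded repeat RNA in myotonic dystrophy. In flies the mbl gene is also known as the source of an abundant circRNA made from an early exon, and Muscleblind protein binds its own transcript close to that exon and favours its circularization. Footprints over a back-splice junction are of interest because that junction is not present in the linear mRNA of the gene.

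All mbl reads lay on a single circle, and the rest of the family was at 0. This circle lies on chromosome 2R from 13162915 to 13163568 in build dm3, on the plus strand, and had 42 reads (exact Poisson interval 30.3 to 56.8). Each of the other 16 mbl circles had 0 reads. For folds, a count of 0 is set to a floor of 3 reads per circle, or 1.30% of the total. The upper end of the exact 95% interval, drawn in the plot of reads by host gene, is 3.69 reads or 1.59%. The single-exon circle stood 14-fold above this floor, and 10.1-fold above it at the lower end of its interval.

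The circles are numbered from 1 to 17 by their start and then by their end, so the one with reads is circle 1. It ranked first in the list and held 18.3% of all 230 reads (exact binomial interval 13.5% to 23.9%). The other 188 reads were spread over 121 circles of other genes, with a median of 1 read for each circle that had any. The next highest circle, from the potassium channel gene Sh, had 28 reads (18.6 to 40.5), and its interval overlapped that of the mbl circle. The intervals of the circles that followed, from kis (11 reads), stw (6), CG34126 (4) and Cip4 (3), lay below it.

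**Figure D1:**
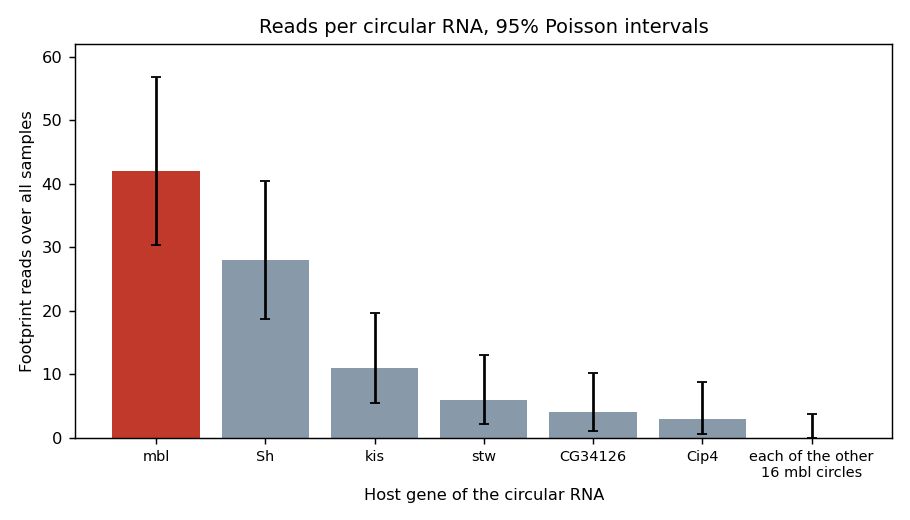
Footprint reads over all samples (vertical axis) for each listed circRNA with at least 3 reads and for the other mbl circles, by host gene; bars are the authors' counts and error bars 95% exact Poisson intervals. The mbl circle stands at 42 reads, the Sh circle at 28 with an overlapping interval, and each of the other 16 mbl circles at 0.

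Counted by circles, mbl was near the background of the list. A read was found on 1 of 17 mbl circles (5.88%, exact binomial interval 0.149% to 28.7%). Over all listed circRNAs the share was 4.76%, and among those of other genes it was 121 of 2546 (4.75%, 3.96% to 5.65%). On chromosome 2R, mbl held 42 of the 63 reads, and the other 21 lay on circles of other genes.

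Circle 1 is exactly 1 annotated exon. Its span of 654 bases equals an exon found in all 19 annotated mbl transcripts, as the second exon of 13 of them, the first of 5 and the third of 1. This exon carries the start codon of every annotated mbl transcript. The codon begins at base 466 of the exon, counted from 1 at its 5′ end, after 465 bases of leader, and 189 bases run from it to the exon's end.

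The lengths on both sides of the start codon are whole numbers of codons. The stretch from the start codon to the back-splice junction holds 63 codons of 3 bases, and the leader stretch beyond the junction holds 155 triplets. The whole ring has 218 triplets, so the frame set by the start codon is unchanged after passage across the junction and back to the start codon. Whether a stop codon lies in that frame beyond the junction was not examined, since no sequence was read. Nor do the counts give the frame of the footprints.

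Other circles built like circle 1 were not rare in the list. Of all 2563 listed circRNAs, 226 matched a single annotated exon holding a start codon, circle 1 included. A read was found on 27 of these (11.9%, exact binomial interval 8.02% to 16.9%), beside 4.76% over the list. Apart from circle 1, none of the 226 had more than 2 reads, and together they had 33. The Sh circle is not among them because its span matches 1 or 2 exons depending on the transcript. Circle 1 was of ordinary size for the class, with 93 shorter and 132 longer circles and a median of 749.5 bases.

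About 1 in 3 circles of this class had a length divisible by 3. There were 70 such circles among the 226 (31.0%, 25.0% to 37.4%). Of those 70, 9 had a read (12.9%, 6.05% to 23.0%), and of the 156 others 18 had a read (11.5%, 6.98% to 17.6%). The intervals overlapped widely, and whether divisibility by 3 bears on reads was not tested. The 70 held 53 reads against 22 on the others, and 42 of the 53 were those of circle 1.

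The start of that exon is the most shared start in the family. For a gene on the plus strand the start of a circle is its back-splice acceptor and the end its donor. In all, 8 of the 17 circles begin at the same acceptor, at position 13162915, and they differ only in the donor. Their ends lie 654, 1369, 20467, 30628, 40729, 76896, 84148 and 86688 bases downstream of the shared start. The reads fell on the shortest of these 8, and the other 7 had 0 reads, as had 2441 of the 2563 listed circRNAs.

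**Figure D2:**
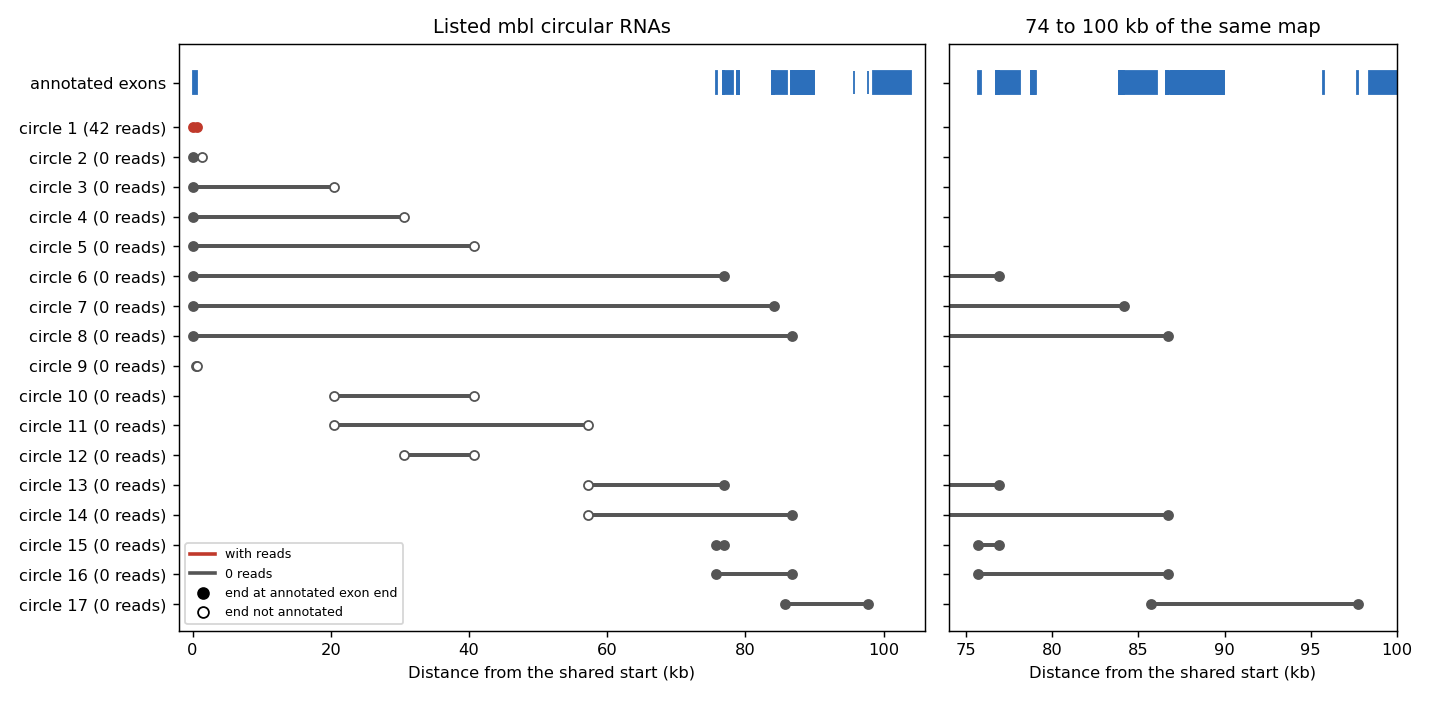
Map of the 17 listed mbl circRNAs, one per row, against distance in kb from the start shared by 8 of them; blue boxes are annotated exons, filled circles mark ends at annotated exon ends and open circles ends that match none. Circle 1, in red, covers only the exon at 0 and carries all 42 reads, whereas 9 circles have an end inside the long empty stretch that follows it.

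The remaining 9 circles begin at 6 other positions further downstream. Acceptors at 20.4, 57.2 and 75.7 kb from the shared start were used by 2 circles each. Those at 0.507, 30.6 and 85.7 kb were used by 1 circle each. The 17 circles thus had 7 distinct starts and 11 distinct ends. The donors at 40.7, 76.9 and 86.7 kb were used by 3 circles each and the other 8 donors by 1 each.

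Most of the circles therefore overlap in their ends. At least 1 end was shared with another mbl circle in 15 of 17 (88.2%, exact binomial interval 63.6% to 98.5%), the exceptions being circles 9 and 17. Among circRNAs of other genes the share was 44.9% (43.0% to 46.9%). It was 85.4% among the 192 circRNAs of the other 13 host genes that have at least 10 entries under 1 symbol of the table, and 84.9% among the 239 of the 17 such genes by current symbol.

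Beyond circle 1, the annotated exons account for 6 more circles. In total 7 of 17 began and ended at exon ends of 1 annotated transcript (41.2%, 18.4% to 67.1%). CircRNAs of other genes were matched by span length alone, without placing their ends. By that measure 1943 of 2546 matched an exon block (76.3%, 74.6% to 78.0%), and mbl again had 7. Circle 6, from 13162915 to 13239810, spans the start-codon exon and the following 2 coding exons, a ring of 1002 bases if introns are removed. Circle 7, ending at 13247062, would hold 1254 or 1488 bases by transcript. Circle 8, ending at 13249602, would hold between 1120 and 1606 bases.

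The remaining exon blocks lack the start codon. Circle 15, from 13238599 to 13239810, joins the 2 coding exons that follow the long intron and would hold 348 bases. Circle 16 starts at the same place, ends at 13249602 and would hold between 466 and 952 bases. Circle 17, from 13248618 to 13260666, matched 3 exons of 1 transcript, with 245 bases. The start codon was thus held by 4 of the 7 exon blocks of mbl (57.1%, 18.4% to 90.1%), beside 37.7% of the exon blocks of other genes.

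Of those 4, circle 1 had 42 reads and circles 6, 7 and 8 had 0. All 4 contain the whole start-codon exon. Over all listed circRNAs 4.76% had a read, and whether the start-codon exon bears on reads was not tested. The expected ring length was divisible by 3 for circles 1, 6, 7 and 15, and for circles 8, 16 and 17 it was not. Ring lengths other than that of circle 1 assume that every intron within the span is spliced out, which the list does not measure.

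The other 10 circles had at least 1 end that matched no annotated exon end. Circles 2 to 5 start at the shared acceptor but end outside annotated exons. Circles 13 and 14 end at annotated donors but start outside annotated exons. Circles 9 to 12 match the annotation at neither end. Circle 9 is the shortest, with 120 bases from 13163422 to 13163541, and lies wholly inside the start-codon exon, downstream of the start codon.

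Most of these ends lie in 1 intron. The start-codon exon is followed by an intron of 75.0 kb in every transcript that goes on past it, and 9 circles have at least 1 end inside it, at 3 starts and 5 ends. Inside the intron, 3 listed starts are each followed closely by a listed end that belongs to another circle. The start at 20425 bases is followed by an end at 20467, the start at 30577 by an end at 30628, and the start at 57166 by an end at 57232.

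The distances between them are 42, 51 and 66 bases, each divisible by 3. The list has no circle made of any of these stretches alone, and no annotated mbl exon lies at any of them. The fourth position, the end at 40729, was used by 3 circles without a listed start close upstream. The last intronic end, at 1369, lies 715 bases past the start-codon exon and belongs to circle 2. No read fell on any of the 9 circles that use these positions, beside a share of 4.76% with a read over all listed circRNAs.

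The mbl circles were long by the standard of the list. Their spans, introns included, ran from 120 bases to 86.7 kb with a median of 20.3 kb (order-statistic interval 10152 to 36807 bases), beside a median of 1032 bases for other genes (962 to 1097). Spans over 20 kb were found for 9 of 17 mbl circles and for 54 of 2546 others (2.12%, 1.60% to 2.76%). The circles closest to that limit were circle 13 at 19.7 kb and circle 10 at 20.3 kb. Of all 63 listed circRNAs with spans over 20 kb, 4 had a read, and none of these was an mbl circle. Over the whole list 4.76% had a read. Of the 20 longest entries 5 were mbl circles. Circle 1, with 654 bases, was below the median of other genes.

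**Figure D3:**
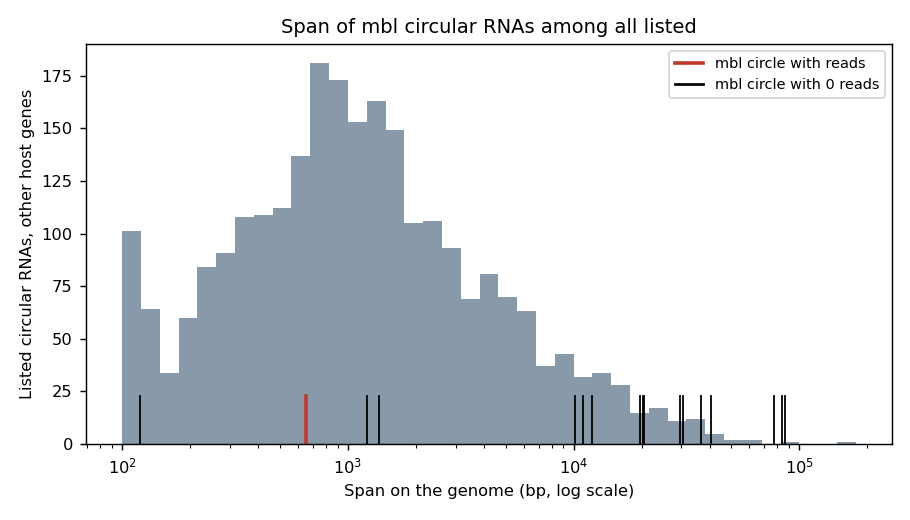
Distribution of genomic span (horizontal axis, bases on a log scale) for the 2546 listed circRNAs of other genes, as counts per bin, with each mbl circle as a vertical tick. The mbl circle with reads, in red at 654 bases, lies among the bulk of the list, and 9 mbl circles without reads lie above 20 kb.

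Several host genes had as many circles as mbl, without comparable reads. More entries than the 17 of mbl were listed for 4 host genes, namely eEF2 and eEF1alpha1 (translation elongation factors), CG17646 and pan, and slo had as many. The circles of eEF2 and eEF1alpha1 were unlike those of mbl, with median spans of 248 and 258.5 bases and no match to an exon block. Under the symbols printed in the table, 13 host genes other than mbl had at least 10 entries. They had 192 circRNAs, of which 5 had a read, beside 122 of 2563 (4.76%) over the whole list. These 13 genes had 6 reads in all and at most 2 on any gene. The genes with reads were nolo with 2 reads and CG17646, pan, slo and Eip63E with 1 each. No read was listed for eEF2, eEF1alpha1, Cadps, CG17816, dlg1, para, sif or CG32264. By current symbol 4 more genes reach 10 entries, because the table splits them over several symbols, namely ps with 14 circles and 2 reads, Svil with 12 and 3, scrib with 11 and 0, and SLO2 with 10 and 0. The 17 genes then had 239 circRNAs, of which 10 had a read, with 11 reads in all and at most 3 on any gene.

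The number of circles at a single acceptor was the measure used to find the genes most like mbl, taken over all 1220 other host genes with a known strand. Only pan, which encodes the Wnt pathway transcription factor, had as many, with 8 circles at 1 acceptor. It was followed by CG17646, CG17816 and Cadps, a gene for a vesicle-priming factor, with 6 each. The 8 pan circles held 1 read, which was not on the shortest of them, and the sets of 6 held 0 reads. The median span of the pan circles was 10266 bases, and 88.9% of them matched exon blocks.

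**Figure D4:**
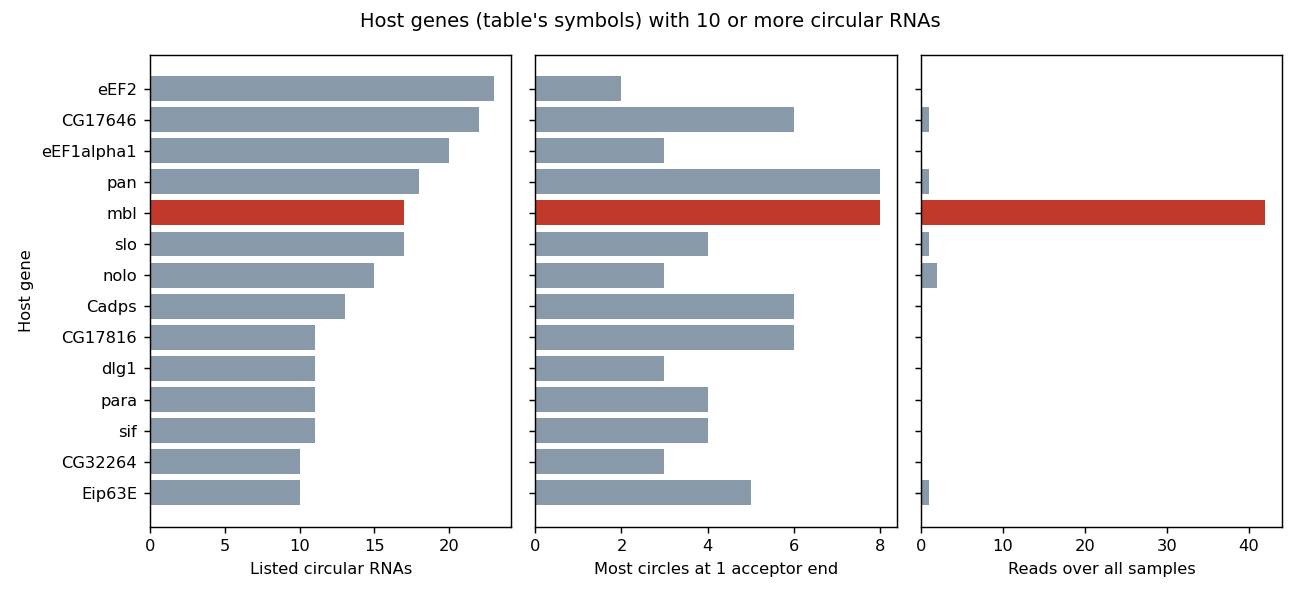
Host genes with 10 or more listed circRNAs under 1 symbol of the table (current symbols shown), with bars for the number listed (left), the largest number at 1 acceptor (middle) and reads over all samples (right), each axis starting at 0. The mbl bar is matched or exceeded by several genes in the left panel and matched only by pan in the middle. It stands alone at 42 reads in the right panel, where no other gene shown exceeds 2.

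Across the list, sets of circles sharing an acceptor did not always carry their reads on the shortest member. There were 330 such sets of at least 2 circles, and 39 had a read. Leaving out mbl, 38 sets had a read and 23 of them had one on the shortest circle. Those sets held 56 reads, 26 of them on the shortest circle.

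Genes for other splicing and RNA-binding regulators were compared by counts alone. The list was broader than the splicing regulators to which Muscleblind belongs, and it included the translation initiation factor eIF4G1. Of 48 such genes, 22 had listed circRNAs by current symbol, 83 in all. Reads were found on 10 of the 83 (12.0%, 5.93% to 21.0%), beside 4.76% over the list, with 13 reads and at most 2 on any circle. They came from eIF4G1 with 3 reads on 2 circles, ps, msi and heph with 2 reads each, and shep, bru1, mub and larp with 1 each. The largest families were those of ps (pasilla) with 14 circles, pum (pumilio) with 8, and msi (musashi) and sqd (squid) with 6 each. None was listed with reads near the 42 of mbl, and Rbfox1, another splicing regulator, had 5 circles and 0 reads.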

How the data were processed

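Ribosome footprints of fly heads were sequenced in 4 libraries. Per the file headers, ribosomal RNA sequences had been removed. The submitters' processing notes name cutadapt 1.9.1 and build dm3. How reads were aligned and how circRNAs were called and listed is not given in the sources used here. The authors deposited raw whole-number counts per circRNA over all samples, which are not normalized. The 4 columns of single libraries could not be matched to samples by the labels and were not used, so no test between samples was made. Library totals are unknown, and the table's 230 reads set the precision. PCR duplicates are not told apart.

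Per the labels' protocols, the libraries numbered 1 and 2 followed an earlier homogenization method and those numbered 3 and 4 used a buffer with Triton X-100.

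Starts are the table's start coordinate plus 1, on the assumption that it counts from 0. Exons came from Ensembl release 115 on BDGP6, a later build, so no coordinate was carried over: distances between circle ends were compared with distances between exon ends, and equality was required. Over the whole list, spans were matched to exon blocks by length, where 76.1% matched, against 1.05% to 2.34% after adding 1 to 11 bases. Of the 17 mbl names, 13 carry an accession now assigned to mbl. Names without a symbol (64) took the symbol of the accession, from NCBI's table for release 6, and printed symbols are current ones.

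Intervals are exact (Poisson, Clopper-Pearson) or by order statistics for medians, and the methods were tested on simulated data. All mbl circles are described. Other circles are named with at least 3 reads, and other genes with at least 10 entries, or from the regulator list with a read. The genes most like mbl were the top 3 by circles at 1 acceptor, with ties. The regulator genes without reads (pum, sqd, Rbfox1) were named after their values were seen. The members and gene lists were chosen with earlier results of these data known. Python 3.11.15, numpy 2.4.6, pandas 2.3.3 and scipy 1.17.1 were used.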

Additional observations from a re-analysis of the deposited data

How the results depend on the processing

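Taking mbl circles by the current symbol of the accession gave 13 in place of 17, and by coordinates 17. The share of reads was 18.9% over circRNAs at exon blocks and 20.8% without the Sh circle. With at least 2 or 5 reads, 1 mbl circle remained. The counts at the shared start (8) and at exon ends (7) were the same with looser matching. Counting every span that covers the start codon, an alternative chosen after the data were examined, gave 8 circles in place of 4, because circles ending outside annotated exons then count. The median span was 35678.5 bases for circles at the shared start. Other host genes with at least 10 entries had 6 reads by the table's symbols and 11 by current symbol, an alternative also chosen after the data were examined, since more genes then reach 10 entries. No paired analysis was possible because the columns of single libraries could not be matched to samples, and leaving out libraries was not run for the same reason. A circle expected to give fewer than 3 reads can be missed at this depth.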
